A study of Mus musculus with 30 samples.

Results

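The regions described here are all Snf2h ChIP-seq regions on mouse chromosome 15 in the lists of 2 CH12 lines. The wild-type list holds 701 of them and the mutant list 1175, together 1876 of the 41174 regions listed for both lines on chromosomes 1 to 19, X and Y. Chromosome 15 was chosen by its ratio of mutant to wild-type regions, which was high in these same lists, so that ratio is a description and was not tested. The series studies where CTCF, the zinc-finger protein that stops cohesin at loop anchors, binds relative to nucleosomes and DNA methylation. CH12 is a mouse B lymphoma cell line. The line called wtCH12 has a wild-type genotype, and the line called mutCH12 was modified with Cas9 to carry a homozygous deletion of zinc fingers 9-11 in the CTCF gene. Neither line carried an expression vector or received another treatment. Each line has 1 deposited Snf2h list, whose tag reads Rep12, and whether mutCH12 is a single clone is not given in the sources used here. All differences below are therefore between 2 lists, have no replicate check and carry no p-value. Intervals are exact (Clopper-Pearson) 95% intervals for ratios and shares and order-statistic 95% intervals for medians. They cover counting error or the spread between regions only, and neighbouring regions are not independent.

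Snf2h is the ATPase of the ISWI chromatin remodellers, which slide nucleosomes into regular arrays, and its activity is known to be needed for CTCF to bind many of its sites. Snf2h binding measured by ChIP-seq is a local pile of fragments over a broader layer of fragments from the same stretch of DNA. That layer scales with the number of copies of the stretch in the cells and with how much of the protein or of open chromatin lies there. Gains of chromosome 15, which carries the Myc oncogene, are known to recur in mouse lymphoid tumours. Copy number was not measured in these files, so copy number and a broad difference in Snf2h amount cannot be told apart from the region lists. The series also names a meDIP input library for each line, which was not used here.

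Chromosome 15 held 1.68 mutant regions per wild-type region (interval 1.52 to 1.84), the highest ratio of the 19 autosomes. The other 18 autosomes ranged from 1.18 on chromosome 16 to 1.61 on chromosome 8, and the ratio over all of them was 1.38. Of the 701 wild-type regions on chromosome 15, 232 had no mutant region overlapping them by at least 1 bp, which is 33.1% against a background of 38.8% of all wild-type regions. Of the 1175 mutant regions, 706 had no wild-type region overlapping them, which is 60.1% against a background of 56.1% of all mutant regions. In each list 469 regions overlapped one of the other list. Regions called in the mutant alone were thus 3.04 times as many as regions called in the wild type alone (interval 2.62 to 3.55). The other autosomes lay between 1.42 on chromosome 16 and 2.76 on chromosome 8. Chromosome 15 had the lowest wild-type-only share of the 19 autosomes, while chromosome 12 had a larger mutant-only share, at 61.3%. Both shares lay within a few percentage points of the background.

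The ratio varied with the threshold on the strength of a region. Restricted in each list to strong regions, those whose −log10 q reached 10, chromosome 15 had 270 mutant and 114 wild-type regions, a ratio of 2.37 that 1 other autosome exceeded, at 2.39. With the mutant list cut to its 17304 regions of highest −log10 p, so that the lists were equally long, chromosome 15 kept 889 mutant regions and a ratio of 1.27, and the other autosomes lay between 0.865 and 1.23. The ratio of regions called in 1 line only moved further, to 8.43 among strong regions, where chromosome 15 was at rank 5 and the others reached 12.1, and to 1.67 with lists of equal length, where it was at rank 1.

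The deposited fold and −log10 p of each region can be taken apart into its summit pileup, the number of fragments over the summit, and its background rate, the number that the peak caller took as the background level there. In both lists this background had a property that a count of the Snf2h library's own fragments in the 10 kb around the summit would have. Scaled by fragment length, it was a whole number of fragments for 99.99% of wild-type summits above the lowest rate and for 100% of mutant summits, where 10% would be whole by chance at the tolerance of 0.05 fragments used. It was under the pileup of its own summit at 0 of 17303 wild-type and 0 of 23865 mutant summits. That count follows from the range of the deposited folds, so it does not tell the library's own fragments from those of a control. Whether a control library entered is not given in the sources used here. The average over the genome, which the caller sets as the lowest background, came to 206.1 wild-type and 138 mutant fragments in 10 kb. The mutant library was the thinner one and gave more regions. Below, the fragments in the 10 kb are called the window count. Ratios of the mutant to the wild type are given for regions that overlapped 1 to 1, called pairs, and are divided by the median over all 9929 autosomal pairs, which was 0.763 for the window count, 1.04 for the pileup and 1.16 for the fold.

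Chromosome 15 had 460 such pairs. Their window counts ran from 206.1 over a median of 403 to 2505 fragments in the wild-type library and from 138 over a median of 344 to 2130 in the mutant library. Summit pileups had a median of 28 fragments in the wild type and 32 in the mutant. Relative to the autosomal median, the window count was 1.08 times as high in the mutant (interval 1.05 to 1.10), and it was above 1 in 65.7% of pairs. Both values were the highest of the 19 autosomes, the others reaching from 0.941 on chromosome 3 to 1.03 on chromosome 8 in the ratio and from 35.9% to 59.7% in the share of pairs. The pileup ratio was also the highest, at 1.08 (interval 1.05 to 1.12) against 0.929 to 1.06. The fold, in which both enter, was 0.994 (interval 0.968 to 1.02) and ranked 14th, within the other autosomes' range of 0.970 to 1.03. The fragments over the summits and the fragments around them were thus higher to about the same degree, and the fold of the summits over their surroundings lay within the range of the other autosomes. The summit fragments are themselves part of the window. Without them the window ratio was 1.09, and in the 218 pairs with no other region of either list within 10 kb it was 1.07, again the highest of the autosomes in each case.

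**Figure D1:**
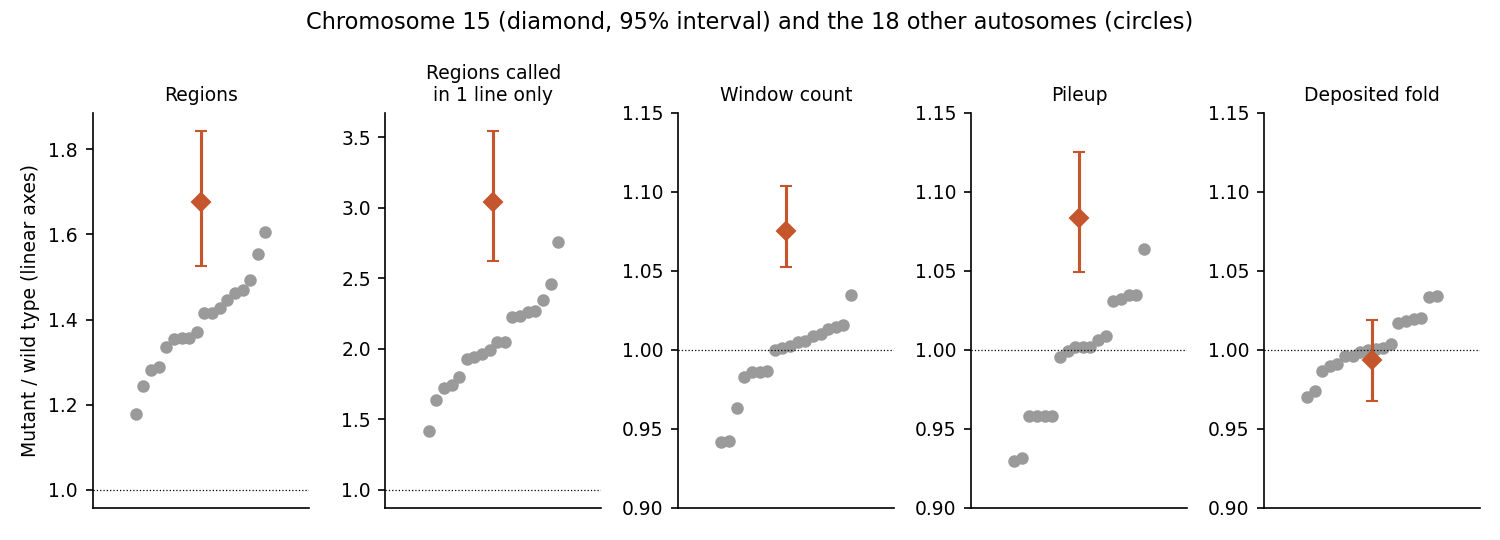
Mutant to wild-type ratios of each autosome: regions per list, regions called in 1 line only, and the medians over pairs of window count, pileup and deposited fold, the last 3 relative to the autosomal median pair. Circles are the 18 other autosomes in ascending order and the diamond is chromosome 15 with its 95% interval; it lies above every circle in the first 4 panels (1.68, 3.04, 1.08 and 1.08) and among the circles in the fold (0.994).

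When pairs were ranked by −log10 p in each list, the chromosome 15 pairs stood a median of 1.74 percentile points higher in the mutant ranking than in the wild-type ranking (interval 0.118 to 3.77), which was rank 3 of the 19 autosomes, with the others between −2.35 and 2.68. The interval included 0 under other choices: without the 5 Mb of sequence from 100 Mb (−0.404 to 3.18), with every overlapping pair (−0.080 to 3.42) and among strong regions (−1.77 to 9.74). In each of the 11 bins described below, the shift of the middle 50% of pairs spanned more points than the median shift itself. Ranked by fold instead, the median shift was −0.34 points, the opposite direction, with an interval that included 0 (−2.30 to 0.753).

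The difference was not even along the chromosome. In 5 Mb bins counted from position 1 of the deposited coordinates, for which the processing notes name mm9, 20 bins held at least 1 region and 15 held at least 10 in each list. Among these 15, the bin at 100–105 Mb, at the far end of the chromosome, had the highest ratio, with 50 wild-type and 134 mutant regions, or 2.68 mutant regions per wild-type region (interval 1.92 to 3.79). Of these, 15 were called in the wild type alone and 98 in the mutant alone, a ratio of 6.53. These are 30.0% of its wild-type regions, against a background of 38.8%, and 73.1% of its mutant regions, against a background of 56.1%. The bin at 55–60 Mb followed with 43 and 87 regions (2.02), and then the bin at 35–40 Mb with 38 and 70 (1.84). Lowest of the 15 were the bins at 90–95 Mb with 26 and 21 regions (0.808), at 5–10 Mb with 44 and 53 (1.20) and at 85–90 Mb with 46 and 57 (1.24). The bin at 75–80 Mb held the most regions of both lists, 107 and 172, and its ratio of 1.61 lay near the middle. Without the bin at 100–105 Mb the ratio of chromosome 15 was 1.60, just below that of chromosome 8. The 398 bins of other autosomes with at least 10 regions per list ran from 0.391 on chromosome 5 to 4.10 in the bin at 25–30 Mb of chromosome 8, so a ratio of 2.68 in a bin was not the highest of the genome. The middle 50% of bins lay between 1.44 and 1.83 on chromosome 15 and between 1.23 and 1.57 on the others. The thin bins at 0–5, 40–45, 45–50 and 50–55 Mb of chromosome 15 had higher ratios than 2.68, and that at 20–25 Mb a lower one than 0.808, from 2 to 9 wild-type regions each.

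**Figure D2:**
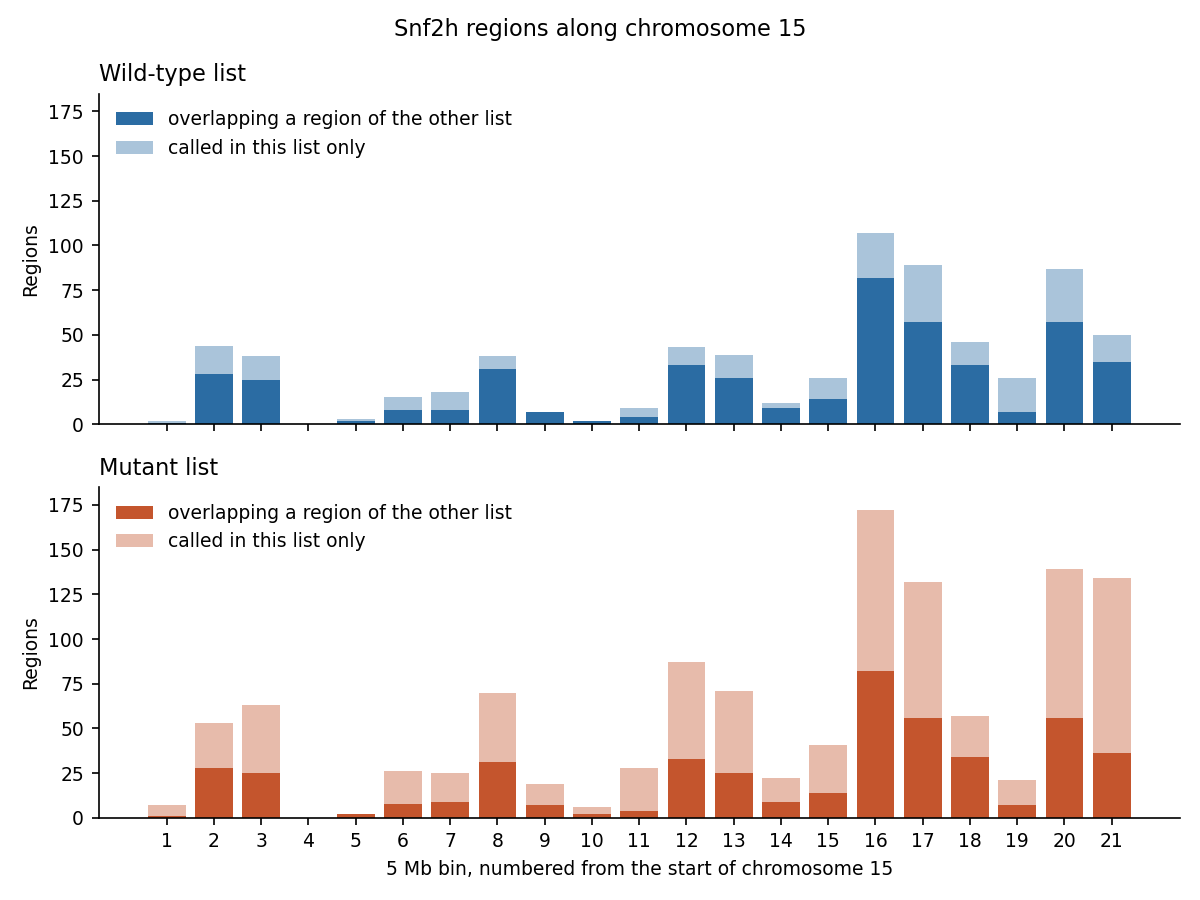
Number of Snf2h regions in each 5 Mb bin of chromosome 15 in the wild-type list (top) and the mutant list (bottom), split into regions that overlap one of the other list (dark) and regions called in that list only (light). Among bins with at least 10 regions per list, the mutant-only part is largest relative to the wild-type-only part in bin 21, the last one (100–105 Mb), with 98 against 15 regions.

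Among the 11 bins of chromosome 15 with at least 10 pairs, the ratio of window counts was 1.55 at 100–105 Mb (interval 1.43 to 1.69, 34 pairs), 1.37 at 55–60 Mb (1.29 to 1.43, 33 pairs) and 1.30 at 60–65 Mb (1.20 to 1.67, 24 pairs). Of the 327 autosomal bins with at least 10 pairs, these 3 had the highest ratios and were the only ones above 1.25. They are 3 of the 11 bins of chromosome 15, against 0 of the 316 bins of the other autosomes. The share over all 327 bins, 0.917%, consists of these same bins. The 316 bins of the other autosomes ran from 0.652 at 90–95 Mb of chromosome 16 to 1.22 at 0–5 Mb of chromosome 9, with quartiles at 0.958 and 1.03. The 3 lowest bins of chromosome 15 were at 5–10 Mb (0.877), 70–75 Mb (0.903) and 10–15 Mb (0.939), inside that range. The pileup ratio was highest in the same 3 bins, at 1.45, 1.36 and 1.29 in the order given, while the fold ratio was 0.950, 0.985 and 0.929. Their median rank shifts were 7.81, 12.4 and 6.67 percentile points upward in the mutant, with lower bounds of 0.630, 0.226 and −0.404. These shifts lay inside the range of the 316 bins of the other autosomes, −28.4 to 29.0 points. Over the 11 bins the window ratio and the pileup ratio had a Spearman's rho of 0.91, and the window ratio and the fold ratio one of −0.55. Over the 316 bins of the other autosomes these were 0.64 and 0.27. Both are descriptions of bins of the same 2 libraries. The summit fragments are part of the window, and the background rate is the divisor of the fold. Neither the pileup ratio nor the fold ratio is therefore free of the window ratio. On chromosome 15 pileup and window count were thus high in the same bins, and the fold was not.

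**Figure D3:**
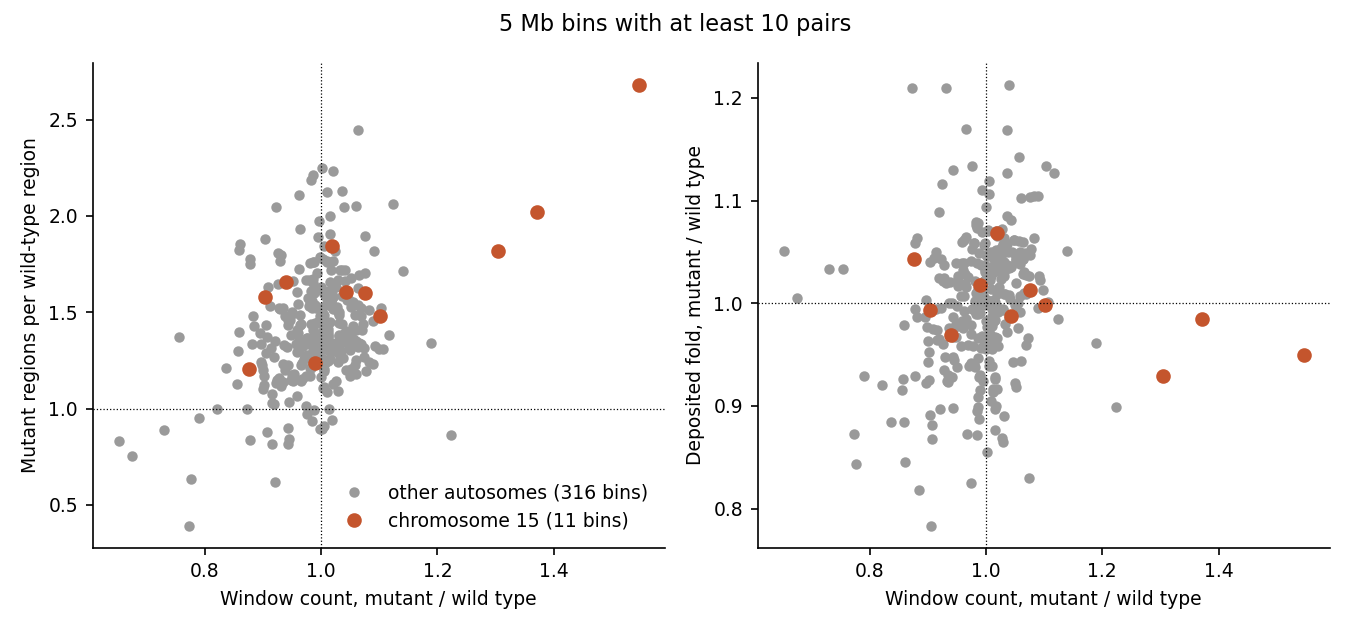
Each point is a 5 Mb bin with at least 10 pairs; the horizontal axis is its median window-count ratio (mutant to wild type, relative to the autosomal median), and the vertical axes are its mutant regions per wild-type region (left) and its median fold ratio (right). The 3 chromosome 15 bins at 1.30, 1.37 and 1.55 lie to the right of all 316 bins of the other autosomes (at most 1.22), and their fold ratios lie between 0.929 and 0.985.

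The 3 bins before the one at 55–60 Mb have few regions in either list and stayed under 10 pairs. They held 7 wild-type and 19 mutant regions at 40–45 Mb, 2 and 6 at 45–50 Mb, and 9 and 28 at 50–55 Mb. Window ratios were 1.82 over 7 pairs, 1.25 over 2 pairs and 1.80 over 4 pairs, and every one of these pairs was above 1. Thin bins of chromosome 8 had like ratios, among them 1.63 at 0–5 Mb over 5 pairs, 1.72 at 20–25 Mb over 7 pairs and 1.95 at 25–30 Mb over 7 pairs. A high window ratio was therefore not limited to chromosome 15 once thin bins were counted.

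To follow the window count without fixed bins, its running median over 7 consecutive pairs was drawn along each autosome, and stretches above 1.25 or below 0.8 were marked. Both limits were chosen after the data were seen. Above the upper limit lay 97 of the 460 chromosome 15 pairs (21.1%), against a background of 2.09% of all autosomal pairs and 1.17% of pairs on the other autosomes. Below the lower limit lay 4 pairs (0.870%), against a background of 2.16%. The raised pairs formed 4 stretches with 24.3 Mb in all. The first ran from 41443759 to 59225766 (37 pairs, window ratio 1.45), the second from 62076678 to 64205151 (15 pairs, 1.48), the third from 81131620 to 81560816 (4 pairs, 1.36) and the fourth from 99195549 to 103110463 (41 pairs, 1.55). The 3 longer ones lie over the 3 high bins and the thin bins before them, and the short one rests on few pairs. The low stretch, from 5212347 to 5283808, had a ratio of 0.693. Such stretches were not particular to chromosome 15, since the other autosomes had 21 raised and 27 lowered ones. The longest were a raised one on chromosome 8 (31.9 Mb, 33 pairs, 1.59) and a lowered one on chromosome 16 (13.5 Mb, 74 pairs, 0.654), the autosomes next to chromosome 15 and last in the mutant to wild-type ratio of regions.

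**Figure D4:**
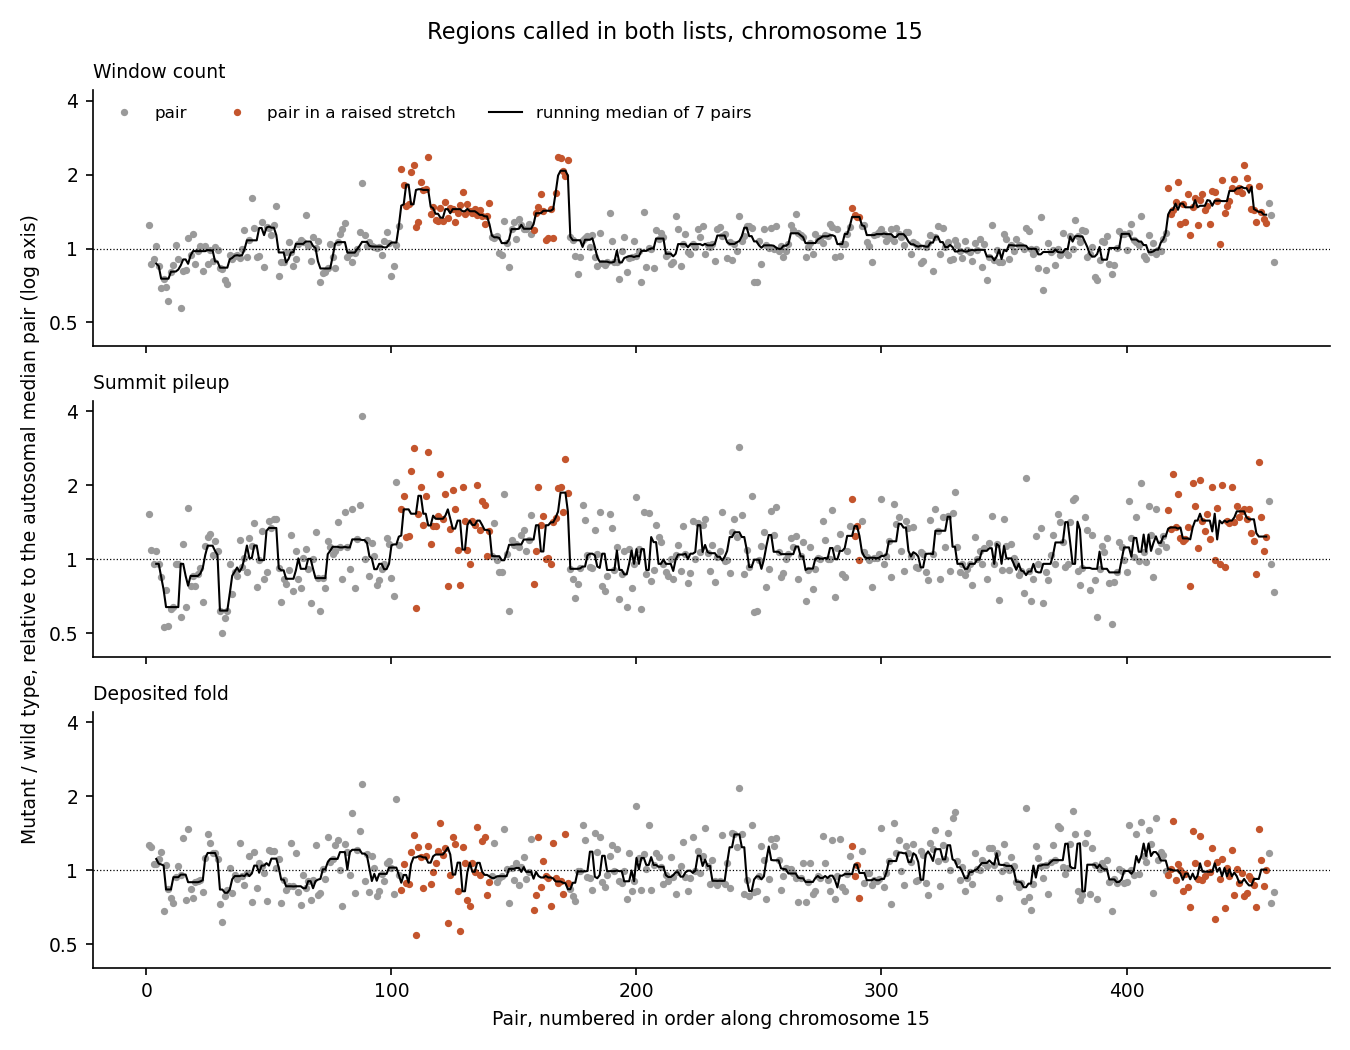
Mutant to wild-type ratio of window count (top), summit pileup (middle) and deposited fold (bottom) for the 460 pairs in order along chromosome 15, relative to the autosomal median pair, on a log axis, with the running median of 7 pairs as a line. Pairs in the 4 raised stretches, coloured, lie above the dotted line at 1 in the top panel, are mostly above it in the middle panel (median 1.44), and scatter around it in the bottom panel (median 0.959).

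The edges of the stretches could be placed only as closely as the regions lie. At the start of the fourth stretch, the pair at 99182251–99182508 had 470 window fragments in the wild type and 415 in the mutant, a ratio of 1.16. The next pair, at 99195549–99195791 and 13.0 kb further on, had 426 and 572, a ratio of 1.76. At the end of the second stretch the last pair, at 64204823–64205151, had 301 and 528 window fragments, a ratio of 2.30. The next one, at 66307468–66307651, had 285 and 243, a ratio of 1.12, so that 2102 kb without a pair lie between them. The first stretch began with a pair of 302 and 485 fragments (ratio 2.11). The pair before it had 194 fragments in the mutant and the lowest rate, 206.1, in the wild type, so that its ratio of 1.23 is a lower bound and the edge may lie further out. Its far end passed from 1.53 to 1.11 within 309.6 kb. The fourth stretch ended where the running median ran out of pairs. Of the 3 pairs after it, those at 103163100–103163371 and 103200906–103201171 were still at 1.53 and 1.37, and the last pair of the chromosome, at 103493997–103494266, was at 0.878 with both window counts at the lowest rate.

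Since the stretches were marked by the window count, their window ratio of 1.47 (interval 1.43 to 1.53) and the fact that all 97 pairs were above 1 restate the choice. The pileup ratio, which is not free of that choice because the summit lies in the window, was 1.44 (interval 1.36 to 1.53). The fold ratio was 0.959 (interval 0.923 to 1.02). Its divisor is the background rate that marked the stretches, so the choice tends to lower it. The median rank shift was 10.9 percentile points (interval 4.94 to 15.4). The window ratio was 1.48 without the summit fragments, and 1.48 in the 50 pairs of these stretches with no other region of either list within 10 kb. Both values also follow in large part from the choice. In numbers of regions the stretches held 144 wild-type and 331 mutant regions, a ratio of 2.30 (interval 1.88 to 2.82). Called in 1 line alone were 42 and 230, a ratio of 5.48 (interval 3.93 to 7.80). The mutant-only share was 69.5% there, against a background of 56.1%, and the wild-type-only share 29.2%, against a background of 38.8%.

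The rest of chromosome 15 is what remained after the raised stretches were taken out by their window ratio, so its lower window ratio and rank shift follow in large part from that choice. The other autosomes were not trimmed in this way, and no rank among them is given. Its 363 pairs had a window ratio of 1.03 (interval 1.01 to 1.05), a pileup ratio of 1.03 (interval 0.993 to 1.07), a fold ratio of 0.999 and a rank shift of −0.049 points. Among the isolated pairs of the rest the window ratio was 0.991. The mutant list still had 844 regions against 557, a ratio of 1.52 (interval 1.36 to 1.69). For regions called in 1 line only the ratio was 2.51, with 476 against 190. These are 56.4% of its mutant regions, near the background of 56.1%, and 34.1% of its wild-type regions, against a background of 38.8%.

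The window counts of all regions, called in both lists or not, gave the level of each line separately. Relative to the autosomal median of 368 fragments in the wild-type list and 276 in the mutant list, regions in the raised stretches had a median level of 0.992 in the wild type and 1.59 in the mutant. Regions called in 1 line only were divided by another median, that of the autosomal regions called in the same list only. On that scale mutant-only regions there stood at 1.67 and wild-type-only regions at 0.916, so these values are not comparable with the levels of all regions. In the rest of the chromosome the levels of all regions were 1.10 and 1.05. The stretches were marked by a high ratio of these counts, and 230 of the 331 mutant regions there were called in the mutant alone, so the levels of the lines rest on different regions and are a description only. The second stretch differed in that the wild type was high too, at 1.39, with the mutant at 2.45. The bin around it, 60–65 Mb, had the highest levels of chromosome 15 in both lines, 1.90 and 2.62, among bins with at least 10 regions per list. Its 24 pairs had median pileups of 37 and 51.5 fragments. Single bins of other autosomes reached higher levels still.

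**Figure D5:**
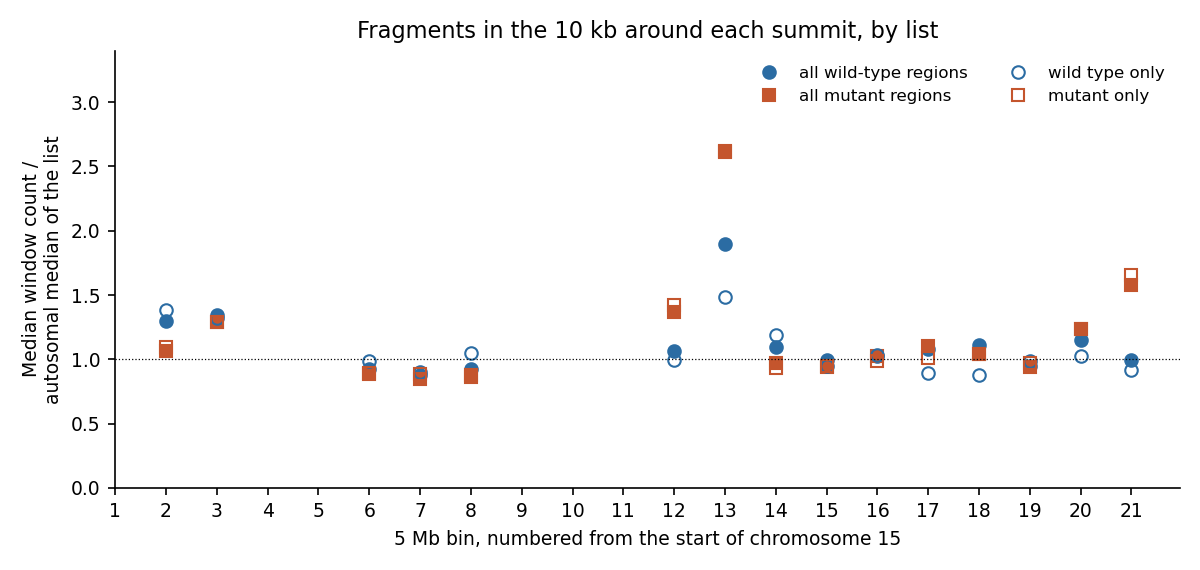
Median window count of the regions in each 5 Mb bin of chromosome 15 with at least 10 regions per list. Filled symbols are all regions of a list, divided by the autosomal median of that list (368 fragments in the wild type, 276 in the mutant). Open symbols are regions called in that list only, divided by the autosomal median of such regions, so filled and open symbols have different divisors. Wild-type and mutant symbols lie apart in bins 12 (55–60 Mb), 13 (60–65 Mb) and 21 (100–105 Mb), where mutant regions stand at 1.37, 2.62 and 1.58, and in the opposite direction in bin 2 (5–10 Mb), with 1.30 in the wild type and 1.07 in the mutant.

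Single regions show how these numbers arise. The pair ranked highest in both lists, at 74915904–74917506 in the wild type, had pileups of 323 and 366 fragments in windows of 2505 and 2130, and folds of 7.75 and 8.99. It lay outside the raised stretches and its rank differed by −0.02 points. The next, at 4056045–4056419, had pileups of 104 and 166 in windows of 446 and 425, and the third, at 103013204–103014099 in the fourth stretch, had 114 and 177 in windows of 651 and 700. These 3 pairs were picked for standing high in both lists.

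The 3 pairs with the largest upward shift were at 55388733–55389038 (71.8 points), 99279338–99279524 (70.4) and 75616866–75617063 (67.3), the first 2 inside raised stretches. At the first the pileup was 19 fragments in the wild type and 44 in the mutant, in windows of 389 and 433, and the fold 2.72 and 4.95. At the second the pileups were also 19 and 44, in windows of 331 and 363. The third, outside the stretches, had 15 and 28 in windows of 238 and 169. All 3 stood among the weakest of the wild-type pairs, at percentiles 1.09, 7.59 and 3.65. Downward, the largest shifts were at 10416811–10417344 (−70.5 points), 58081805–58082016 (−54.6) and 57806365–57806631 (−52.1). The pair at 58081805–58082016 had pileups of 28 and 23 in windows of 277 and 319, and that at 57806365–57806631 had 43 and 35 in windows of 601 and 612. Both lie in the first raised stretch, with window ratios of 1.51 and 1.33, so a raised window did not mean a raised summit at every region.

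Of the regions called in the wild type alone, the strongest with no mutant region within 1 kb were at 98634182–98634497 (pileup 57, window 430, fold 7.24), 78002156–78002491 (50, 544 and 5.17) and 79303776–79304012 (36, 269 and 6.87). None of these 3 lay in a raised stretch. The strongest called in the mutant alone were at 78283312–78283585 (pileup 80, window 723, fold 5.58), 58522030–58522347 (52, 361 and 6.84) and 79578031–79578366 (47, 286 and 7.56), and the second of them lay in the first raised stretch. All 6 stood between percentiles 92.1 and 96.2 of −log10 p in their lists. The median percentile was 45.0 for mutant-only and 32.9 for wild-type-only regions in the raised stretches, 38.8 and 34.7 in the rest of the chromosome, and 36.2 and 32.1 on the other autosomes. The mutant-only value differed between the stretches, from 36.8 in the first to 67.2 in the short one with 6 such regions, and single bins outside them lay above the pooled 45.0, such as 51.8 at 65–70 Mb.

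A readout that took no part in choosing the chromosome is the position of cohesin in another cell type. The same series lists regions of the cohesin subunits SMC1, RAD21 and SMC3 in NIH3T3 fibroblasts, a mouse line, with an empty vector or with BORIS, the germline paralogue of CTCF. Of the chromosome 15 Snf2h regions called in both CH12 lines, 117 of 469 (24.9%, interval 21.1 to 29.1) overlapped a cohesin site listed in all 6 of those lists. Wild-type-only regions did so in 87 of 232 cases (37.5%, interval 31.3 to 44.1) and mutant-only regions in 182 of 706 (25.8%, interval 22.6 to 29.2). The other autosomes had 22.4%, 30.3% and 23.7% in the same order. Wild-type-only regions thus had the largest share at cohesin sites on chromosome 15 as on the other autosomes together. Single autosomes ranged from 23.3% to 34.9% in the wild-type-only share, and the interval of chromosome 15 reached into that range. Mutant-only regions in the raised stretches overlapped a cohesin site in 24.3% of cases (interval 18.9 to 30.4) and those in the rest of the chromosome in 26.5% (interval 22.6 to 30.7), so the difference between these shares was within counting error. Inside the raised stretches, which were marked by the window ratio, the 22 pairs at cohesin sites had a fold ratio of 0.964 and the 75 pairs away from them one of 0.959. In the rest of the chromosome the fold ratio was 0.966 for the 91 pairs at cohesin sites and 1.01 for the 272 others, and on the other autosomes 0.976 and 1.01. The window ratios in the rest of the chromosome were 1.01 and 1.04.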

How the data were processed

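The labels' protocol describes ChIP-seq of formaldehyde-fixed, sheared chromatin with an Snf2h antibody. The submitters' processing notes name Bowtie, Bowtie2 version 2, SAMtools, MACS2 and deepTools 3.5.0 and the builds mm9 and hg19, without roles. Coordinates are printed as deposited. No mm9 genome or annotation was used here, so regions carry no gene names or sequences. The authors deposited narrowPeak lists with a fold ratio over background, −log10 p, −log10 q, a score (an integer, not used) and the summit position. Whether replicates were pooled and whether a control library was used is not given in the sources used here. Pileup and rate were solved from fold = (pileup + 1)/(rate + 1) and the upper Poisson tail, for regions with −log10 p under 300, with Python 3.11.15, numpy 2.4.6, pandas 2.3.3 and scipy 1.17.1, and the solution was tested on simulated data. Rates became fragments per 10 kb with each list's narrowest region (163 bp in the wild type, 187 bp in the mutant) as fragment length. In the cohesin lists the rates were not whole window counts, and only their positions were used. Read totals of the libraries are unknown from these lists. Regions on sequences other than chromosomes 1 to 19, X and Y (2 and 3) were left out. The regions named are, among those up to 3 kb wide, the 3 top-ranked ones private to each line (nearest region of the other list over 1 kb away), the 3 pairs with the highest lower rank, and the 3 with the largest shift in each direction. Named bins are the 3 highest and 3 lowest. Members, lists and rules were chosen with earlier results of these data known.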

Additional observations from a re-analysis of the deposited data

How the results depend on the processing

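With 1 list per line no library could be left out, and read depth cannot be equalised in lists of regions. No paired analysis was possible because there was a single Snf2h list for each line. Of 35 values recomputed under another choice, other than leaving out a bin, 18 stayed within the interval of the value reported. Among these 18 is the highest window ratio of a bin with bins of 10 Mb. It came from the same 34 pairs at the end of the chromosome, so it does not test the choice. Limited to strong regions (−log10 q from 10 upward), the ratio was 2.37 for regions, 8.43 for regions in 1 line only (rank 5 of 19 autosomes), 1.14 for the window count, 1.13 for the pileup and 1.03 for the fold. Counting such strong regions as private against the other list as deposited gave a ratio of 12, at rank 3 with other autosomes up to 18, from 60 of 270 mutant regions (22.2%, against 16.6% of all strong mutant regions) and 5 of 114 wild-type regions (4.39%, against 5.23%). Lists of equal length gave 1.27 for regions and 1.67 for those in 1 line only. Ranking among all regions of a list gave a shift of 5.64 points, on a scale where every other autosome also shifted upward (1.20 to 5.92). Ranking by fold gave −0.34 (interval −2.30 to 0.753). Without the raised stretches, which were picked by the window ratio after the data were seen while other autosomes were left whole, the ratios, lowered in part by that choice, were 1.52 for regions, 2.51 for regions in 1 line only, 1.03 for the window count and 1.03 for the pileup, and the shift was −0.049 points. With cohesin sites of any of the 6 lists, 35.4% of regions called in both were at one. With a limit of 1.4 for raised stretches, also added later, 16.3% of pairs lay in them, and the next autosome had 6.44%. Leaving out each bin in turn gave 1.60 to 1.71 for regions, 2.80 to 3.25 for regions in 1 line only, a shift of 1.46 to 2.75 points, and 1.06 to 1.09, 1.07 to 1.10 and 0.988 to 0.997 for window count, pileup and fold. The cause of the other differences was not tested.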
